A study of Mus musculus with 8 samples.

Results

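The HoxB and HoxC clusters are runs of homeobox genes that encode the position-specifying Hox transcription factors. DNA methylation was followed along both in injured and sham-operated mouse kidneys. The regions were chosen by position, mm9 chr11:96050-96235 kb for HoxB and chr15:102745-102875 kb for HoxC, and a CpG position was kept where every library covered it with 10 or more reads. This left 745 positions in HoxB and 589 in HoxC, 1334 of the 976938 positions of the series that passed the same minimum. The HoxB region held 1304 positions covered in any library and the HoxC region 1071. The methylation level of a position is the percentage of its reads that were methylated.

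The kidneys came from wild type male C57BL/6J mice, and the DNA from cortex and outer medulla. It was profiled by RRBS, short for reduced representation bisulfite sequencing. In this assay the enzyme MspI cuts DNA at its recognition site, and unmethylated cytosines of the short fragments are converted so that they read as thymines. Unilateral ureteral obstruction (UUO), in which the left ureter is tied and cut, was sampled at 7 days. There were 2 libraries of UUO with 5AZA, given by intraperitoneal injection in saline at 1 mg per kg per day, 2 of UUO without 5AZA, and 1 of the UUO sham. 5AZA is a name used for cytosine analogues that block DNA methyltransferases. Ischemia of both kidneys for 25 minutes was followed by 1 week of reperfusion in 1 library and by 1 month in another, and 1 library came from its own sham. Whether the libraries of a group stand for different animals is not said in the labels, so the p-values below concern these libraries only. The UUO sham and the ischemia groups had 1 library each, so their own spread could not be measured. The animals' ages are not stated.

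In vertebrates the genes of a Hox cluster lie in the order in which they are used along the body axis, and the clusters are rich in CpG islands. In differentiated tissues, active Hox genes usually carry unmethylated islands, while silent ones are often held by Polycomb proteins without DNA methylation. Sorted by the lowest coordinate of each RefSeq span, HoxB runs from Hoxb13 through Hoxb9, Hoxb8, Hoxb7, Hoxb6, Hoxb5, Hoxb3, Hoxb4 and Hoxb2 to Hoxb1. The microRNA genes Mir196a-1 and Mir10a and the noncoding Hoxb5os and Hoxb3os lie among them. Where annotated spans overlap, this need not be the order of the gene starts, so Hoxb3 before Hoxb4 is an order of spans only. HoxC runs from Hoxc13 through Hoxc12, Hotair, Hoxc11, Hoxc10, Mir196a-2, Hoxc9, Hoxc8, Hoxc6, Hoxc5 and Mir615 to Hoxc4. Hotair is a noncoding RNA transcribed antisense within HoxC.

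One gene start could be placed among the measured positions. Of the 26 listed HoxB and HoxC genes, 5 had a promoter sequence in the RefSeq table (GRCm38.p6), and each was compared with the files by the spacing of its CpGs alone. A start was taken as placed when at least 5 CpGs matched, every covered position fell on a CpG, and the match was at least 2 times the next best on its chromosome. This held for Hoxb3os, with 14 of its 19 CpGs matched against 5 at the next best place. Hoxb1, Hoxb4, Hoxb8 and Hoxc4 were not placed, so no gene name marks a measured position in HoxC. The sequence is shown because its MspI sites, in capitals, read differently from the CpGs between them. It runs 5′ to 3′ along the gene, from 250 bases before the annotated start to 50 bases after it, and matched chr11:96214659-96214958 of mm9 on the minus strand. In RefSeq this start lies within the span of Hoxb2.
Hoxb3os: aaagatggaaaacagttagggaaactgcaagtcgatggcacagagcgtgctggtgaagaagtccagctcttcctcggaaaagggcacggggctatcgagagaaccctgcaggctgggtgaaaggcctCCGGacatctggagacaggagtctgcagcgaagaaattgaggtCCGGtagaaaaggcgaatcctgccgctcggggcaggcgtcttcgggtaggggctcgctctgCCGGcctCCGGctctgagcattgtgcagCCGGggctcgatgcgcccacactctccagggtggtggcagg
The motif CCGG, which reads the same on both strands, occurs 5 times in it. Of 32851 RefSeq promoter sequences of the same length, 52.8% hold it at least once and 7.82% at least 5 times.

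At this start, 11 CpG positions had 10 or more reads in every library, and they fell apart by sequence. The 3 positions inside CCGG were methylated at 50% to 90% in every library, on 14 to 72 reads. The 8 other positions were at 0% to 10%, on 14 to 68 reads. Averaged over the CCGG positions, the level was 74.0% and 78.1% in the 5AZA libraries, 74.8% and 80.6% in the UUO libraries and 70.8% in the UUO sham. It was 71.3% at both ischemia times and 66.4% in the ischemia sham. The same averages over the other positions lay between 0% and 3.64%, so the CCGG positions stood above their neighbours in all 8 libraries, sham or injured. For example, the CCGG position 11 bases after the start read 75% and 78.8% in the 5AZA libraries and between 69.2% and 75.6% in the other 6. The CpG 7 bases further along the gene was at 6.25% at most.

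**Figure D1:**
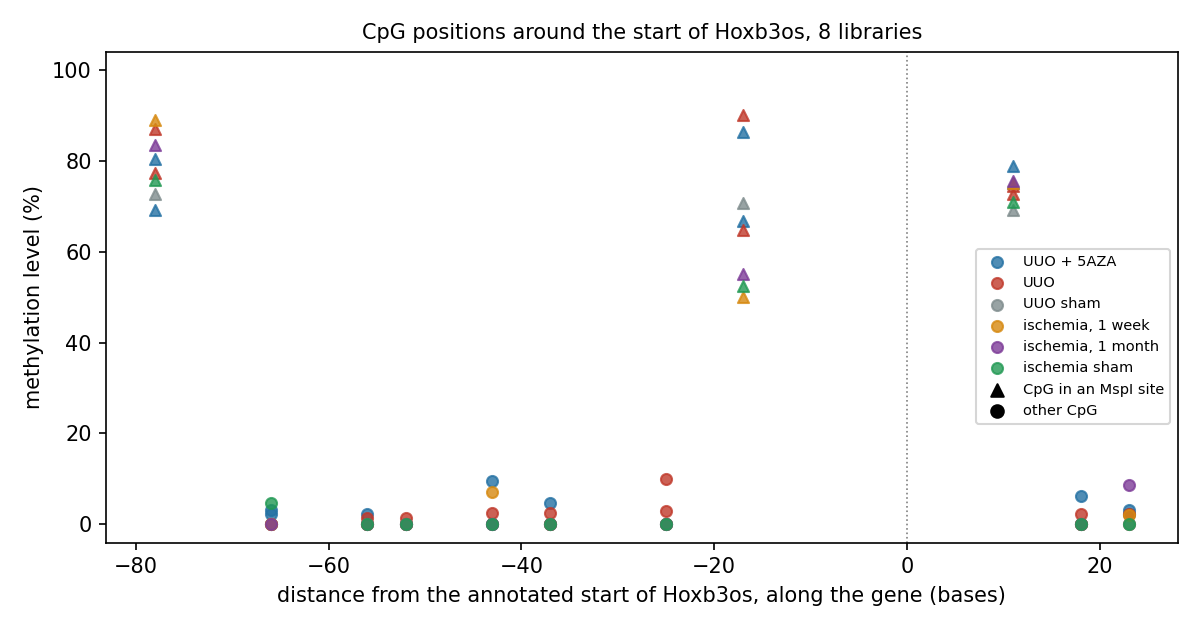
Methylation level (%) of the 11 CpG positions around the start of Hoxb3os against their distance from it in bases, with 1 point per library. Triangles are CpGs in an MspI site and stay between 50% and 90%, and circles are other CpGs, at 10% or below.

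Positions were therefore separated by read depth, without using sequence, for the whole of both clusters. A neighbour was the nearest CpG on a side with 40 or more reads in all, if within 250 bp. A position counted as inside a fragment when it had a neighbour of like depth on both sides. Depth was like when the absolute differences of the libraries, added up, were no more than 10% of the larger total. A position counted as a step when depth was not like on a side, or when it had no neighbour on either side. It counted as outer when it had no neighbour on 1 side and no step on the other. All 3 CCGG positions at Hoxb3os were steps, while of the 8 others 3 were inside fragments and 5 were steps. In HoxB, 343 positions lay inside fragments, 329 at steps and 73 were outer. In HoxC the numbers were 259, 266 and 64.

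Level followed this class far more than it followed the group. Inside fragments the library means were 7.63% to 11.4% in HoxB and 11.1% to 13.3% in HoxC. At steps they were 35.3% to 40.0% in HoxB and 36.1% to 39.4% in HoxC, and at outer positions 75.3% to 80.1% and 75.3% to 80.0%. The step means hide a split into high and low positions. In the UUO sham, 137 of the 329 HoxB step positions were at 50% or more and 124 below 10%, and in HoxC 118 of 266 were at 50% or more and 94 below 10%. Of the HoxB positions inside fragments, 18 of 343 reached 50% and 254 were below 10%, against 25 and 171 of 259 in HoxC. The end-repair mix in the labels' protocol held methylated dCTP, and its part in the level of step and outer positions was not tested. Unless stated otherwise, all further levels are from positions inside fragments.

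**Figure D2:**
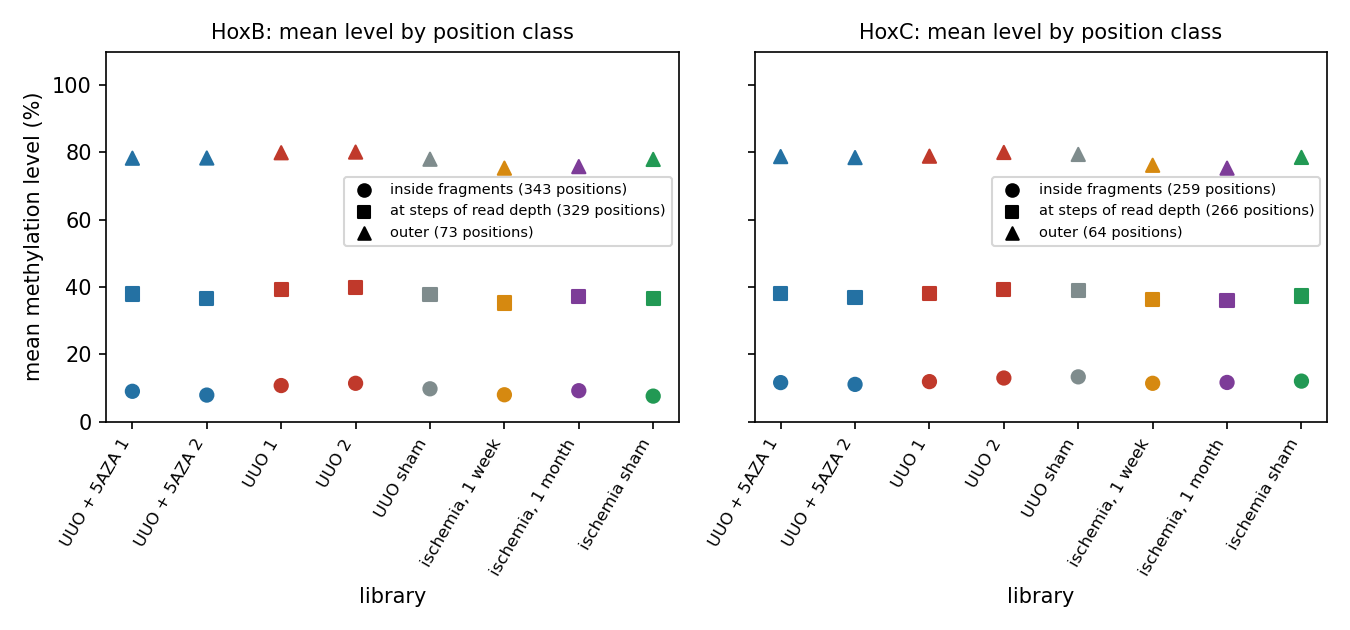
Mean methylation level (%) of each library in HoxB (left) and HoxC (right), by position class. Circles are positions inside fragments, squares positions at steps of read depth and triangles outer positions. The means of the 3 classes are apart in every library, while levels of single positions overlap between classes in the UUO sham.

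Along both clusters, low methylation was broken by a few higher stretches, and some of these were high in every library while others were not. In bins of 5 kb with 3 or more positions inside fragments, 17 of 25 HoxB bins and 9 of 16 HoxC bins were below 10% in the UUO sham, while 4 and 3 were above 30%. In all 8 libraries, 13 HoxB bins and 5 HoxC bins stayed below 10%, and 2 HoxB bins and 1 HoxC bin stayed above 30%. Another 2 HoxB bins and 3 HoxC bins were above 30% in some libraries but not in others. Of these, 1 HoxC bin passed 30% only in the UUO sham, at 48.2% against 15.1% to 27.3% elsewhere, and 1 only in the ischemia sham, at 39.7% against 6.79% to 21.4%. The level in HoxB spanned 0.741% to 86.9% over bins, and in HoxC 2.44% to 55.8%. Inside fragments, the median bin was at 5.32% in HoxB and 8.18% in HoxC, against 45.0% and 51.0% for bins of step and outer positions.

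The most methylated HoxB stretch was chr11:96092001-96093000, 42 kb into the region. Its 4 positions read 82.5% and 83.1% in the 5AZA libraries, 84.5% and 90.4% in the UUO libraries and 86.8% in the UUO sham. They read 87.0% and 89.4% after ischemia at 1 week and 1 month, and 77.2% in the ischemia sham. It was the only HoxB window of 1 kb above 70%, and the bin next to it on the high side was at 0.741% in the UUO sham. The next highest windows in the UUO sham were chr11:96130001-96131000 at 67.9% and chr11:96125001-96126000 at 43.2%, 80 kb and 75 kb into the region. Between 42.9% and 67.9% of reads were methylated in the first, over all libraries, and between 35.3% and 43.2% in the second. The window that holds the Hoxb3os start, chr11:96214001-96215000, was between 0.105% and 1.38% on 20 positions.

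In HoxC the 3 highest windows in the UUO sham lay towards the Hoxc4 side. The windows chr15:102857001-102858000 and chr15:102858001-102859000, 112 kb and 113 kb into the region, read 64.3% and 51.6% in the UUO sham. Their ranges over the 8 libraries were 50% to 64.3% and 44.0% to 58.1%. The window chr15:102842001-102843000 was at 53.6% in the UUO sham and between 36.5% and 48.1% in the other 7 libraries. On the Hoxc13 side, 31 kb into the region, chr15:102776001-102777000 was at 46.3% in the UUO sham but between 15.9% and 27.8% in the other 7. None of the 27 HoxC windows exceeded 70% in the UUO sham or in the ischemia sham. In HoxC all 8 windows with 10 or more positions were below 10% in the UUO sham, as were 4 of 8 with 6 to 9 positions and 4 of 11 with 3 to 5. In HoxB these numbers were 9 of 12, 10 of 11 and 9 of 16, and a window with 10 or more positions reached 39.3%.

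**Figure D3:**
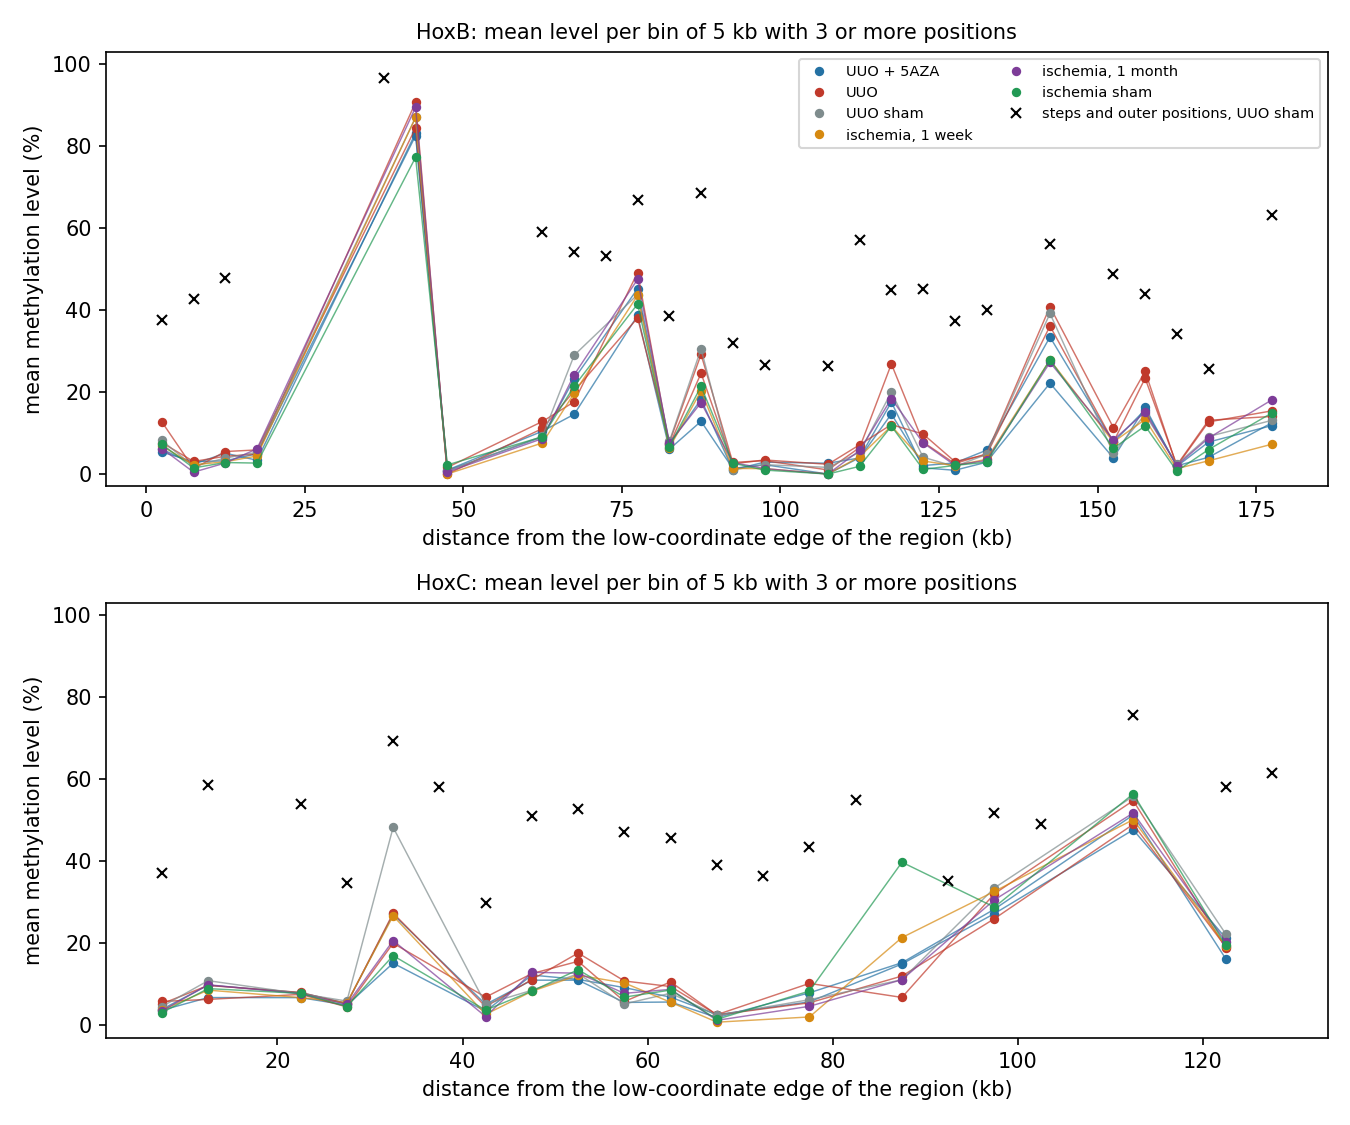
Mean methylation level (%) per bin of 5 kb against distance from the low-coordinate edge of each region in kb, for HoxB (top) and HoxC (bottom). Coloured points are positions inside fragments, 1 per library, and lines join the bins of a library across unmeasured stretches. Crosses are step and outer positions in the UUO sham. The HoxB bin at 86.9% in the UUO sham is high in every library, while the HoxC bin at 48.2% in the UUO sham is lower in the other 7.

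Windows of 1 kb needed 3 positions inside fragments. There were 39 in HoxB and 27 in HoxC, and they held 560 of the 602 positions inside fragments. In the UUO sham 28 HoxB windows were below 10% and 10 lay between 10% and 70%, and in HoxC 16 and 11. Of all 33656 windows of the genome, 58.8% were below 10%, 14.2% between 10% and 70% and 27.0% above 70%. Highly methylated windows thus made up 1 of the 66 Hox windows. This is a description and was not tested.

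The first comparison asked whether obstruction moved methylation in the clusters. The HoxB mean was 10.8% and 11.4% in the UUO libraries and 9.80% in the UUO sham. That put UUO, at 11.1% ± 0.47 (SD, n = 2), 1.30 points above the single sham library. Both UUO libraries lay above the sham, but the shams themselves were 2.17 points apart, with 7.63% in the ischemia sham. The HoxC mean was 11.9% and 13% in the UUO libraries and 13.3% in the UUO sham, 0.88 points lower after UUO. The exact permutation test over libraries (two-sided) gave p = 0.333 for HoxB and 0.667 for HoxC, and the smallest p that 2 libraries against 1 allow is 0.333. In whole tissue, another mix of cells and another level within a cell type cannot be told apart.

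No Hox window was called between UUO and its sham. The quasi-binomial model, with 1 mean per group over all 8 libraries, called a window at a Benjamini-Hochberg adjusted p below 0.05 and a difference of 10 points or more. It called 0 of the 66 Hox windows, where it called 0.187% of all windows. At an unadjusted p below 0.05 there were 9 Hox windows, 6 higher and 3 lower after UUO, against 8.02% of all windows. edgeR called 1 Hox window, against 0.19% of all, and limma 0, against 0% of all. After UUO 41 Hox windows were higher and 25 lower, where 62.7% of all windows were higher. The median difference was 0.50 points over Hox windows and 0.40 points over all windows.

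The 3 largest positive differences after UUO lay within 5 kb of each other in HoxB, 153 kb to 157 kb into the region. At chr11:96203001-96204000, 9 positions read 8.90% and 14.6% in the UUO libraries and 1.44% in the UUO sham (95% exact binomial interval 0.468% to 3.32%). Both UUO libraries exceeded their sham, while the ischemia sham was at 5.14%. The difference was 10.3 points with an adjusted p of 0.0795 in the quasi-binomial test and 0.00793 in edgeR, which made it edgeR's call. At chr11:96205001-96206000, 4 positions read 43.1% and 49.5% in the UUO libraries and 29.5% in the UUO sham, 16.8 points apart with a quasi-binomial adjusted p of 0.525. At chr11:96207001-96208000, 15 positions read 24.3% and 24.7% in the UUO libraries and 14.1% in the UUO sham (interval 11.5% to 16.9%). The other 5 libraries were between 10.8% and 17.7%, so the UUO libraries stood above all others there. That difference was 10.5 points, with a quasi-binomial adjusted p of 0.102. With both shams as 1 group it was 12.1 points with an adjusted p of 0.0137, a call, where that setting called 0.642% of all windows.

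The largest negative differences after UUO rested on a high value in the UUO sham. At chr15:102776001-102777000 in HoxC, 5 positions read 22.5% and 22.1% in the UUO libraries and 46.3% in the UUO sham (interval 36.0% to 56.8%). The other 5 libraries read 15.9% to 27.8%, so the UUO sham stood alone. The difference of -24.0 points had a quasi-binomial adjusted p of 0.352, and with both shams as 1 group it was -10.9 points. At chr15:102842001-102843000 the UUO libraries were at 38.4% and 37.9% and the UUO sham at 53.6%, a difference of -15.5 points (adjusted p 0.302), which was -7.29 points with both shams as 1 group. The third was chr11:96117001-96118000 in HoxB, at 17.4% and 20.0% in the UUO libraries and 28.8% in the UUO sham (adjusted p 0.607).

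**Figure D4:**
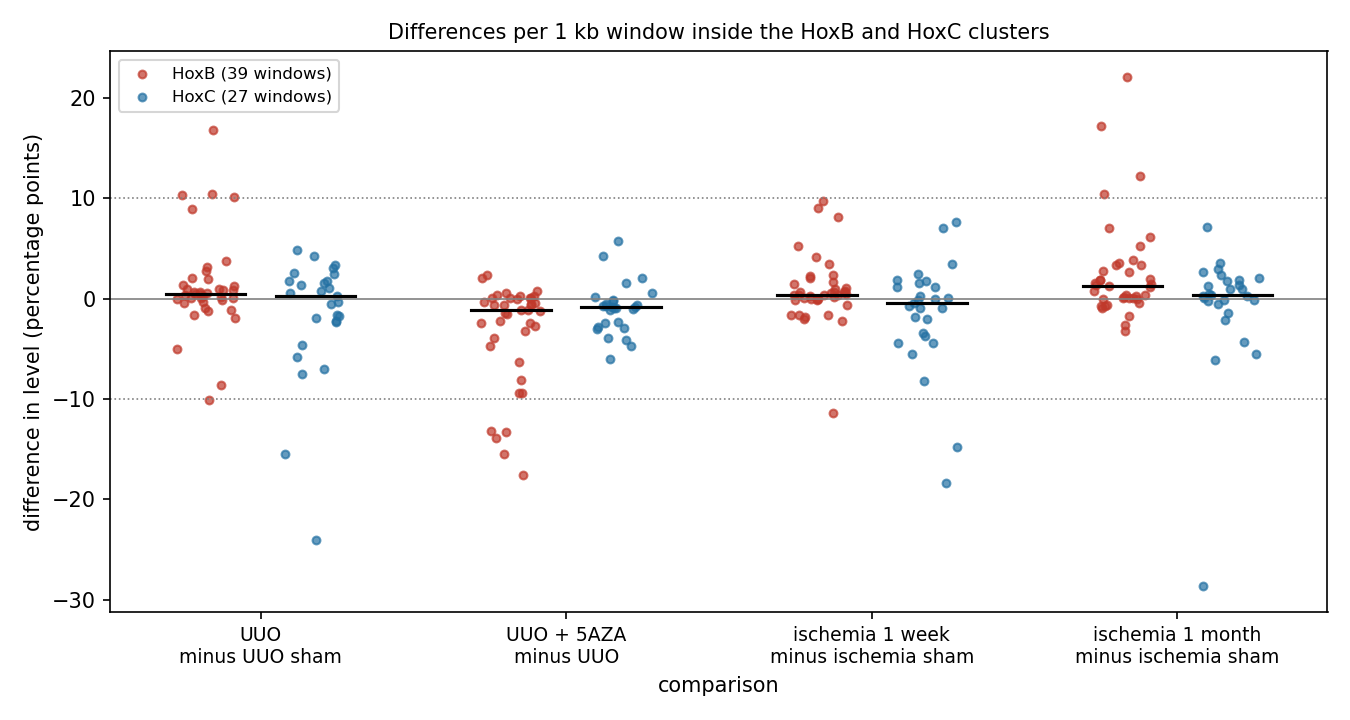
Difference in methylation level (percentage points) per window of 1 kb for the 4 comparisons, with 1 point per window, HoxB left of HoxC in each. Black bars are medians and dotted lines mark 10 points. In UUO with 5AZA, 5 HoxB windows lie 10 points or more below UUO and none lies 10 points above it.

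The second comparison asked what 5AZA changed in the obstructed kidney. The HoxB mean was 9.06% and 7.93% in the 5AZA libraries and 10.8% and 11.4% in the UUO libraries, that is 8.50% ± 0.79 and 11.1% ± 0.47 (SD, n = 2 each). Both 5AZA libraries were below both UUO libraries, by 2.61 points on average, with an exact two-sided permutation p of 0.333, the smallest that 2 against 2 allow. The HoxC mean was 11.6% and 11.1% in the 5AZA libraries and 11.9% and 13% in the UUO libraries, 1.09 points lower and again without overlap. Over all positions inside fragments of the genome, 5AZA libraries were 1.96 points below UUO libraries, so the HoxB and HoxC differences lay on either side of that of the genome.

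With 5AZA, 48 Hox windows were lower and 18 higher than in UUO, where 71.8% of all windows were lower. None was called by the quasi-binomial test, against 0.847% of all windows. At an unadjusted p below 0.05 there were 11, all lower with 5AZA, against 18.1% of all windows. edgeR called 2, against 2.28% of all, and limma 0, against 0% of all. The median difference was -0.95 points over Hox windows and -0.79 points over all. A level 10 points or more lower was measured in 5 Hox windows, all in HoxB, and in 8.25% of all windows. No Hox window was 10 points or more higher, against 0.137% of all windows.

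The largest difference was at chr11:96172001-96173000, 122 kb into the HoxB region. Its 3 positions read 2.78% and 1.45% in the 5AZA libraries and 20.0% and 19.3% in the UUO libraries. The groups were well apart, 17.5 points, but the adjusted p was 0.0508 in the quasi-binomial test and 0.00164 in edgeR, and the window held 42 to 180 reads per library. With step positions kept the difference was -7.02 points and with outer positions kept -7.32 points, both under the 10 points a call needed. At chr11:96205001-96206000 the 5AZA libraries read 26.7% and 35.0% and the UUO libraries 43.1% and 49.5% (quasi-binomial adjusted p 0.239). At chr11:96138001-96139000, 88 kb into the region, 5 positions read 9.47% and 5.92% in the 5AZA libraries and 21.6% and 21.7% in the UUO libraries. Here UUO was at the level of its sham, 21.9%, and the difference with 5AZA of -13.9 points had an adjusted p of 0.093 in the quasi-binomial test and 0.0207 in edgeR. It was -8.70 points with step positions kept. These windows share their UUO libraries with the comparison above, so values of both comparisons are not independent.

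The smallest adjusted p in the clusters belonged to chr11:96203001-96204000, with 2.88% and 1.90% in the 5AZA libraries and 8.90% and 14.6% in the UUO libraries. Its quasi-binomial adjusted p was 0.0487, but the difference of -9.35 points was under the 10 points a call needed. At a minimum of 5 points it was a call, where 1.1% of all windows were called. At chr11:96194001-96195000, a window chosen after its values were seen, 10 positions read 34.0% and 20.6% in the 5AZA libraries and 38.1% and 43.1% in the UUO libraries. The 5AZA libraries differed by more from each other there than the nearer of them did from UUO. The adjusted p was 0.0786, and 0.0498 with 20 or more reads per position, which made it a call under that setting, where 1.28% of all windows were called. The largest positive differences with 5AZA were small. In HoxC they were 5.70 points at chr15:102831001-102832000 and 4.21 points at chr15:102842001-102843000, and in HoxB 2.39 points at chr11:96202001-96203000, with quasi-binomial adjusted p values of 0.462, 0.628 and 0.377.

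**Figure D5:**
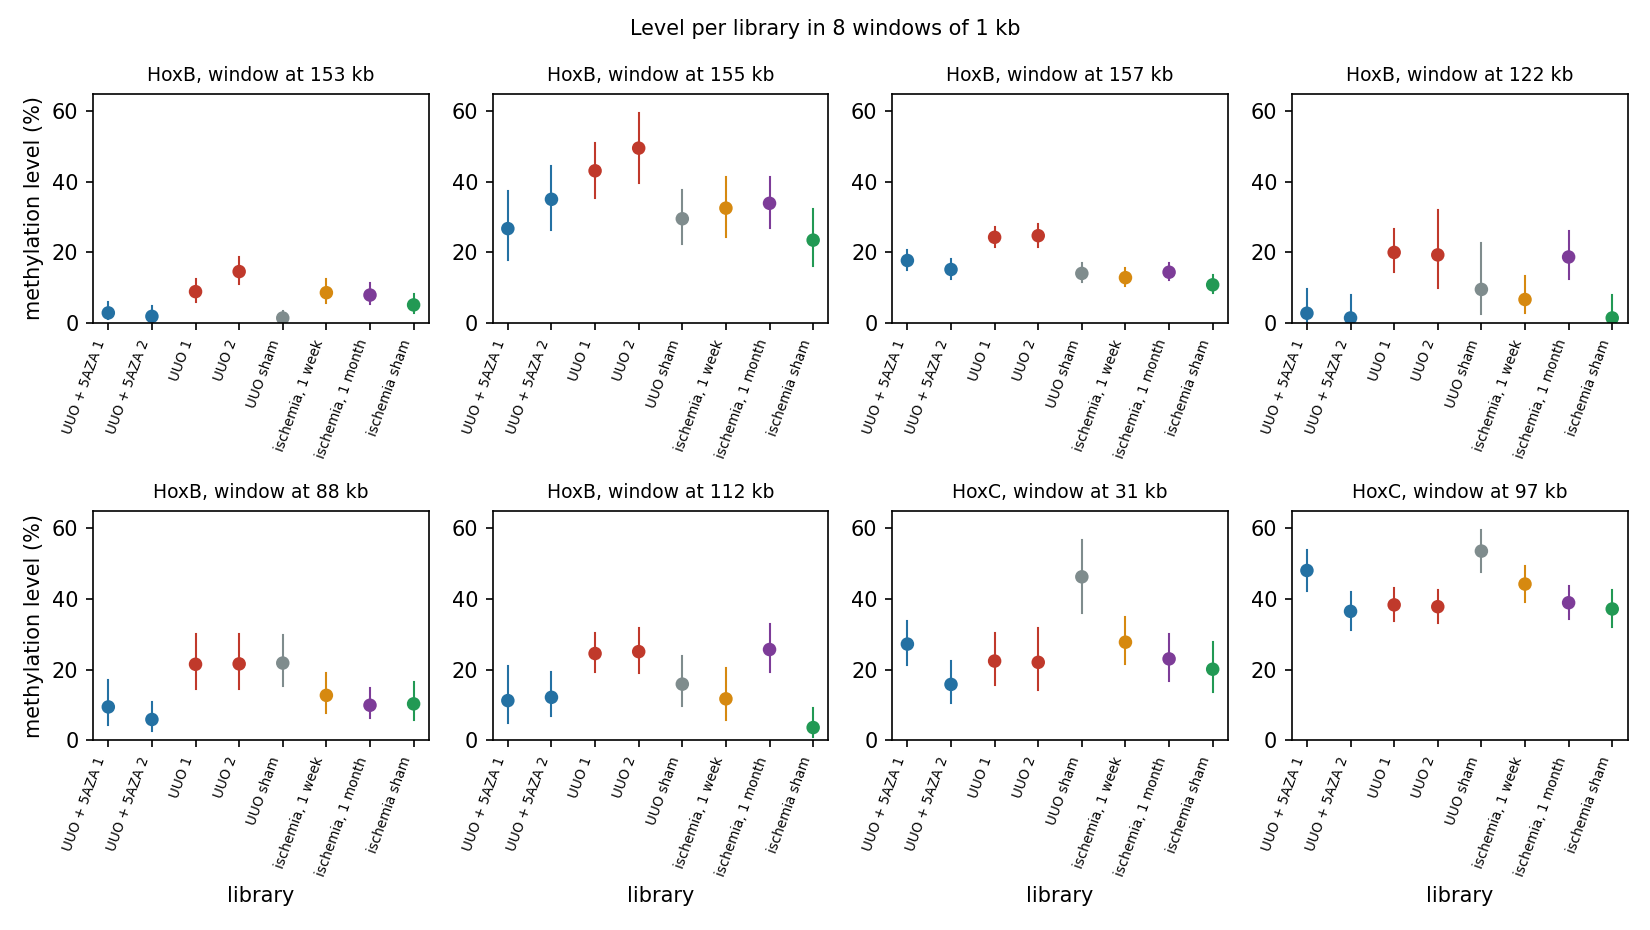
Methylation level (%) per library in 8 windows of 1 kb, labelled by distance from the low-coordinate edge of their region in kb. Bars are 95% exact binomial intervals, which cover counting error only. In the HoxB windows at 153 kb, 155 kb and 157 kb both UUO libraries lie above the other 6, and in the HoxC window at 31 kb the UUO sham stands alone at 46.3%.

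The ischemia libraries had no replicates, and the model assumed that they vary like the UUO and 5AZA libraries. The HoxB mean was 8.03% after 1 week, 9.24% after 1 month and 7.63% in the ischemia sham, differences of 0.40 and 1.61 points. The HoxC mean was 11.4% after 1 week, 11.7% after 1 month and 12.1% in the ischemia sham, differences of -0.65 and -0.40 points. With 1 library against 1 there is no test of these means. All 4 differences were smaller than the distance between the shams, which was 2.17 points in HoxB and 1.27 points in HoxC.

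After 1 week 39 Hox windows were higher, 25 lower and 2 equal, where 50% of all windows were higher. The quasi-binomial test called 0, against 0.00594% of all windows, and 2 had an unadjusted p below 0.05, against 4.76% of all. edgeR called 0, against 0.0446% of all, and limma 0, against 0% of all. After 1 month 46 were higher, 18 lower and 2 equal, where 54.7% of all windows were higher. Again 0 were called, against 0.0297% of all, and 7 had an unadjusted p below 0.05, against 6.26% of all. edgeR called 1, against 0.0743% of all, and limma 0, against 0% of all. The median difference at 1 month was 0.84 points over Hox windows and 0.12 points over all windows. Both times were set against the same sham library.

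The largest positive difference at 1 month was at chr11:96162001-96163000, 112 kb into the HoxB region. Its 4 positions read 11.8% after 1 week, 25.7% after 1 month and 3.64% in the ischemia sham (interval 1.00% to 9.05%). The 5AZA libraries were at 11.3% and 12.2%, the UUO libraries at 24.6% and 25.1% and the UUO sham at 15.9%. The difference at 1 month was 22.1 points, with an adjusted p of 0.322 in the quasi-binomial test and 0.0158 in edgeR. With both shams as 1 group it was 15.9 points with an adjusted p of 0.594. The window at chr11:96172001-96173000 had a like order, with 6.67% after 1 week, 18.7% after 1 month and 1.45% in the ischemia sham, a difference at 1 month of 17.3 points (quasi-binomial adjusted p 0.604). It did not hold when outer positions were kept, where it was -0.23 points, and with step positions kept it was 5.40 points. At chr11:96092001-96093000 the differences were 9.75 points at 1 week and 12.2 points at 1 month, where the ischemia sham had the lowest of all 8 values (quasi-binomial adjusted p 0.984 and 0.774).

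The largest negative difference in both ischemia comparisons was at chr15:102831001-102832000, 86 kb into the HoxC region. Its 3 positions read 21.3% after 1 week, 11.1% after 1 month and 39.7% in the ischemia sham (interval 28.8% to 51.5%). The 5AZA and UUO libraries were at 6.79% to 15.3% and the UUO sham at 11.1%, so the ischemia sham stood alone, on a window of 36 to 225 reads per library. The differences of -18.4 and -28.6 points had quasi-binomial adjusted p values of 0.984 and 0.498, and with both shams as 1 group they were -4.08 and -14.3 points. At 1 week chr15:102809001-102810000 followed with -14.8 points, at 20.0% against 34.8% in the sham, and chr11:96228001-96229000 with -11.3 points, at 7.02% against 18.4%. At 1 month the next were chr15:102841001-102842000 with -6.07 points and chr15:102858001-102859000 with -5.46 points. At 1 week the remaining positive differences were 9.06 points at chr11:96205001-96206000 and 8.13 points at chr11:96162001-96163000. The windows named after chr15:102831001-102832000 all had quasi-binomial adjusted p values above 0.9.

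Depth limits these values. Summed over CpGs, the libraries held 57740933 to 86149864 reads, at a median of 33 to 48 per position, and inside fragments the median was 47 to 73 in HoxB and 42 to 67 in HoxC. A read counts at every CpG it covers and PCR duplicates cannot be recognised, so the intervals hold counting error alone. The median absolute difference between the 5AZA libraries was 1.11 points over HoxB windows and 1.26 over HoxC windows. Between the UUO libraries it was 1.5 and 1.16 points, and between the shams 1.88 and 1.96 points. In the UUO sham, the 164 Hox positions with 10 to 14 reads in their shallowest library had a median of 9.31%. The 105 positions with 5 to 9 reads, just outside the read minimum, had a median of 23.5%. These medians were taken over positions of every class, not only those inside fragments. The mix of classes in each set was not compared, so the difference cannot be read as an effect of depth.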

How the data were processed

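RRBS was run on kidney DNA in 8 libraries of 6 groups. MspI digestion, end repair with methylated dCTP, size selection, bisulfite conversion and PCR preceded sequencing, per the labels' protocols. The submitters' processing notes name Bowtie and mm9, while further steps are not stated there. The deposited tables give, per CpG, a count of reads and a count of methylated reads, and a fraction that the authors rounded and that was not used here. Positions with 10 or more reads in every library were joined (Python 3.11.15, pandas 2.3.3, numpy 2.4.6, scipy 1.17.1). Methylated and total reads inside fragments were summed over windows of 1000 bp with 3 or more positions. A quasi-binomial model, with 1 mean for each group, was run on all 33656 windows in R 4.3.3, with the dispersion moderated by limma 3.58.1 squeezeVar (2 residual and 15.0 prior degrees of freedom) and not below 1. It was followed by a two-sided F test. A run on simulated data drew reads at the model's own dispersion in every library. That run could not test whether groups of 1 library vary like the pairs. Each library counted as a sample. Between the libraries of a pair, the mean chi-square per position inside fragments, where sampling alone gives about 1, was 1.13 for 5AZA and 1.17 for UUO over the genome, and 1.07 and 1.39 over Hox positions, which leaves the 5AZA pair near sampling noise in the clusters. This does not show whether they came from separate animals. Alternatives were other read, step, window and difference limits, left-out libraries, both shams as 1 group, only the groups compared, a replicate block, limma on log2 ratios (pseudocount 1) and edgeR 4.0.16 on methylated and unmethylated counts. Named windows are all called Hox windows, the 3 largest differences each way per comparison and the 3 highest in the UUO sham per cluster. The regions, lists and tests were chosen with earlier results of these data known. No mm9 annotation was used here.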

Additional observations from a re-analysis of the deposited data

Results flagged for a closer look

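Of the windows named for UUO or ischemia, 3 in HoxC had both UUO libraries on 1 side of the UUO sham and both ischemia libraries on the other side of the ischemia sham. The same pattern held in 11 of the 66 Hox windows and in 21.1% of all windows. By cluster it held in 8 of 27 HoxC windows (29.6%) and 3 of 39 HoxB windows (7.69%). At chr15:102776001-102777000 the UUO libraries were -24.0 points from the UUO sham on average (-24.2 and -23.9), and the ischemia libraries 5.29 points above the ischemia sham (2.93 and 7.66). At chr15:102842001-102843000 the averages were -15.5 points for UUO and 4.41 points for ischemia. At chr15:102858001-102859000 they were 1.10 points for UUO (0.05 and 2.14) and -6.83 points for ischemia. None of these differences was called. The difference between the injury models was not tested in any of them, and each model was set against 1 sham library. In the first the UUO sham, at 46.3%, was above every other library, and in the second the UUO sham was also above every other library.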

How the results depend on the processing

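The mean HoxB difference kept its sign under all alternatives for UUO (0.97 to 2.39 points) and for 5AZA (-3.17 to -1.70 points), and so did the HoxC difference for 5AZA (-1.63 to -0.56 points). For UUO in HoxC it turned to 0.15 points with reads pooled over positions, and leaving out a UUO library gave -1.41 to -0.34 points. For ischemia at 1 week in HoxB it was -0.67 points with steps kept, -0.12 with outer positions kept and -0.68 with both shams as 1 group. At 1 month in HoxB these settings gave 0.76, 0.95 and 0.52 points, and pooled reads 1.05, while in HoxC keeping steps gave -1.12 points, and 20 or more reads and pooled reads gave 0.18 and 0.28 points. The causes were not tested.

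Called Hox windows were 0 under the main setting in each comparison. For UUO the count was 1 in edgeR and 1 with both shams as 1 group. For 5AZA it was 2 in edgeR, 1 with 20 or more reads per position and 1 at a minimum difference of 5 points. For ischemia at 1 month it was 1 in edgeR. All other settings run on the full groups gave 0, windows of 300 bp included. For the window, step and outer settings the share of all windows called is not given here. Fits with a UUO or 5AZA library left out had 1 residual degree of freedom instead of 2, so their counts are not given.

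Over all windows, the deviations of like-numbered UUO and 5AZA libraries correlated at 0.02, which cannot show whether they shared a batch. The libraries numbered 1 covered the fewest CpG positions, 1381996 in UUO and 1422407 in 5AZA. Those numbered 2 covered 1483666 and 1622199. A shared batch was not tested. With a replicate block the mean differences for 5AZA stayed at -2.61 and -1.09 points, which pairing the libraries cannot change. The quasi-binomial adjusted p at chr11:96203001-96204000 was 0.109. That fit had fewer residual degrees of freedom than the main one, so its p is not comparable and its count of called windows is not given.

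Of the named windows, 2 values reversed. At chr15:102842001-102843000 the 5AZA difference was -1.58 points without 5AZA library 1 and 9.99 points without 5AZA library 2, and at chr11:96172001-96173000 the difference at 1 month was -0.23 points with outer positions kept. Over all settings the adjusted p ran from 0.00793 to 0.729 for UUO at chr11:96203001-96204000 and from 0.0137 to 0.811 at chr11:96207001-96208000. For 5AZA it ran from 0.00164 to 0.398 at chr11:96172001-96173000 and from 0.0207 to 0.511 at chr11:96138001-96139000, and for ischemia at 1 month from 0.0158 to 1 at chr11:96162001-96163000. With step positions kept, the UUO difference at chr15:102776001-102777000 was -15.4 points and at chr15:102842001-102843000 -10.2 points. The outer setting was added after the data were seen. Depth limits windows with 3 or 4 positions and under 100 reads in a library, and 1 library per sham and ischemia group gives no replicate error there.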

Other observations

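The sister clusters HoxA and HoxD were measured with the same read minimum and position classes. Their bounds were set from general knowledge of mm9, not by the rule for HoxB and HoxC. HoxA and HoxD gave levels inside fragments close to those of HoxB, while HoxC was above both in every library. Their library means were 7.55% to 11.6% on 395 HoxA positions and 7.97% to 10.6% on 441 HoxD positions, against 20.5% to 22.7% on all 410700 positions of the genome inside fragments. UUO minus UUO sham was 2.31 points in HoxA and 0.43 points in HoxD, and 5AZA minus UUO was -2.54 and -1.18 points. The quasi-binomial test called 1 HoxA window for UUO and 2 for 5AZA, and none in HoxD, out of 36 and 26 windows, where it called 0.187% of all windows for UUO and 0.847% for 5AZA.

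The contrast seen at Hoxb3os was also present at the starts of HoxA and HoxD genes. Of 21 RefSeq promoter sequences of these genes, 14 were placed by CpG spacing, and 10 held a CCGG position with 10 or more reads in every library. The 24 CCGG positions were all at 59.6% or more in the UUO sham, and their library means were 71.0% to 78.7%. Of the 129 other CpG positions of placed promoters, 116 were below 10% in the UUO sham and 1 was at 50% or more, with library means of 2.53% to 5.82%. None of the CCGG positions lay inside a fragment by read depth, against 86 of the 129 others. The part of end repair in this contrast was not tested.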
